A study of Mus musculus with 9 samples.

Results

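The Chd2 leader is the 5′ untranslated region of the mouse transcript of Chd2, a chromodomain helicase that remodels chromatin. The deposited table reads it in 2 overlapping amplicons, which are named here by their bounds in the transcript, 1 to 251 and 31 to 281. All of their rows were taken by transcript name. They are 414 of the 32967 nucleotide readings in the table, and 2 of its 161 amplicons, which come from 69 transcripts. Of the 414 readings, 179 were A or C nucleotides with counts, out of 16178 in the series, and they fall on 101 distinct positions. The transcript was chosen by earlier results of these same data on ATP-depleted against untreated cells. That contrast is therefore described here without a test, and tests are kept to RNA refolded in vitro against the mean of the 2 in-cell groups.

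The RNA came from E14 (E14TG2a) mouse embryonic stem cells, a line grown in culture, in 3 groups of 3 samples collected independently. Untreated cells were probed in culture. ATP-depleted cells were first held for 10 min with 10 mM 2-deoxyglucose and 10 mM sodium azide, which block glycolysis and respiration. Both in-cell groups were then exposed to dimethyl sulfate (DMS) at 1.6% and 37 °C for 6 min, with bicine at 250 mM. The last group was RNA from undepleted cells, refolded in vitro and probed there. How DMS was applied to it is not stated in the labels. ATP was not measured in the data used here, and no sample without DMS was analysed.

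DMS methylates the pairing face of A and C where that face is free, and reverse transcriptase copies a methylated base as a mutation. A nucleotide held in a base pair or covered by protein is therefore usually read at a low level. Leaders of messenger RNAs are scanned by the small ribosomal subunit before translation starts, and ATP-driven helicases such as eIF4A open structure in its path. Depleting ATP deprives these enzymes of their fuel, and refolding in vitro removes proteins and ribosomes. In each amplicon and sample the values are counts per 1000000 (CPM) of a library size. That size is near the library's recovered counts but not equal to them. The values therefore give the distribution of signal along the leader and not an overall rise or fall.

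The amplicon 1 to 251 was read at positions 25 to 228, and the amplicon 31 to 281 at positions 52 to 261. Together they cover 237 contiguous positions with 35 A, 66 C, 63 G and 73 U. The G and C content was 54.4%, against a median of 57.9% over all amplicons, and U made up 30.8%, against a median of 21.4%. The read stretch holds no AUG triplet, whereas 127 of 161 amplicons hold one. Libraries held 56119 to 153746 recovered counts for the amplicon 1 to 251 and 114203 to 372084 for the amplicon 31 to 281, all above the series median of 40815. One count was worth between 6.44 and 18.9 CPM in the amplicon 1 to 251 and between 2.67 and 8.97 CPM in the other. The smallest libraries of both were in vitro samples.

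The stretches that hold the nucleotides with the clearest values are printed here 5′ to 3′ from the deposited nucleotides, with T for U. Capitals mark the nucleotides named by rule for a difference between groups, except at 105 to 131, where they mark the stem of a predicted hairpin.
Positions 38 to 64: tagagAgagcgcgCtttgCtcCctgct
Positions 73 to 98: ctttaCgCaaCtttccctaaCtttcg
Positions 105 to 131: ctCAGGGGGCccccgcaGCCCCCTGcc
Positions 199 to 225: cttttCgtgccttgttggaagAagctg
The capitals are A43, C51, C56 and C59 in positions 38 to 64, C78, C80, C83 and C93 in positions 73 to 98, and C204 and A220 in positions 199 to 225.

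The strongest and the weakest signal of the leader lay within a few nucleotides of each other, in the predicted hairpin at positions 107 to 129. RNAfold placed this stem of 8 pairs in the minimum free energy structure of each amplicon and in that of the joined 237 positions. The 5 C of the run 123 to 127, which faces a run of 5 G at 109 to 113, were read at the lowest levels. The mean over this run in the amplicon 1 to 251 was 548, 416 and 567 CPM in untreated cells. It was 316, 363 and 369 CPM in ATP-depleted cells and 798, 492 and 699 CPM in vitro. All 9 samples were therefore far below the median of C in this amplicon, which was 5952 ± 279 CPM in untreated cells (SD, n = 3). The other amplicon, 31 to 281, read the run at a mean of 383 ± 34.5 CPM in untreated cells, 293 ± 66.4 CPM in ATP-depleted cells and 636 ± 182 CPM in vitro (SD, n = 3 each). The single lowest position, C124, rested on 6 to 53 counts per sample in the amplicon 1 to 251 and on 19 to 84 in the other.

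A121, the last nucleotide of the predicted loop, was the highest A or C of the leader. It was read in the amplicon 1 to 251 at 27903, 26484 and 27127 CPM in untreated cells, at 28207, 28959.5 and 31420.0 CPM in ATP-depleted cells, and at 35624, 33379 and 36149 CPM in vitro. The amplicon 31 to 281 gave 28047, 25358 and 27826 CPM in untreated cells, 28702, 27438 and 29332 CPM in ATP-depleted cells, and 36438, 33338 and 34891 CPM in vitro. In both amplicons every in vitro sample lay above all 6 in-cell samples. The rise in vitro was 0.28 ± 0.08 and 0.30 ± 0.08 on the log2 scale described next (estimate ± SE, limma adjusted p = 0.0333 and 0.0272). This call was lost in 10 of 20 and 9 of 20 alternatives, 6 of them in each amplicon by leaving out 1 sample, with adjusted p from 0.0166 to 0.104 and from 0.0133 to 0.0757. The next highest positions by their mean over samples and amplicons were C164, C130 and A234, at 17067, 16919 and 15733 CPM, followed by C118 in the same loop at 13931 CPM.

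**Figure D1:**
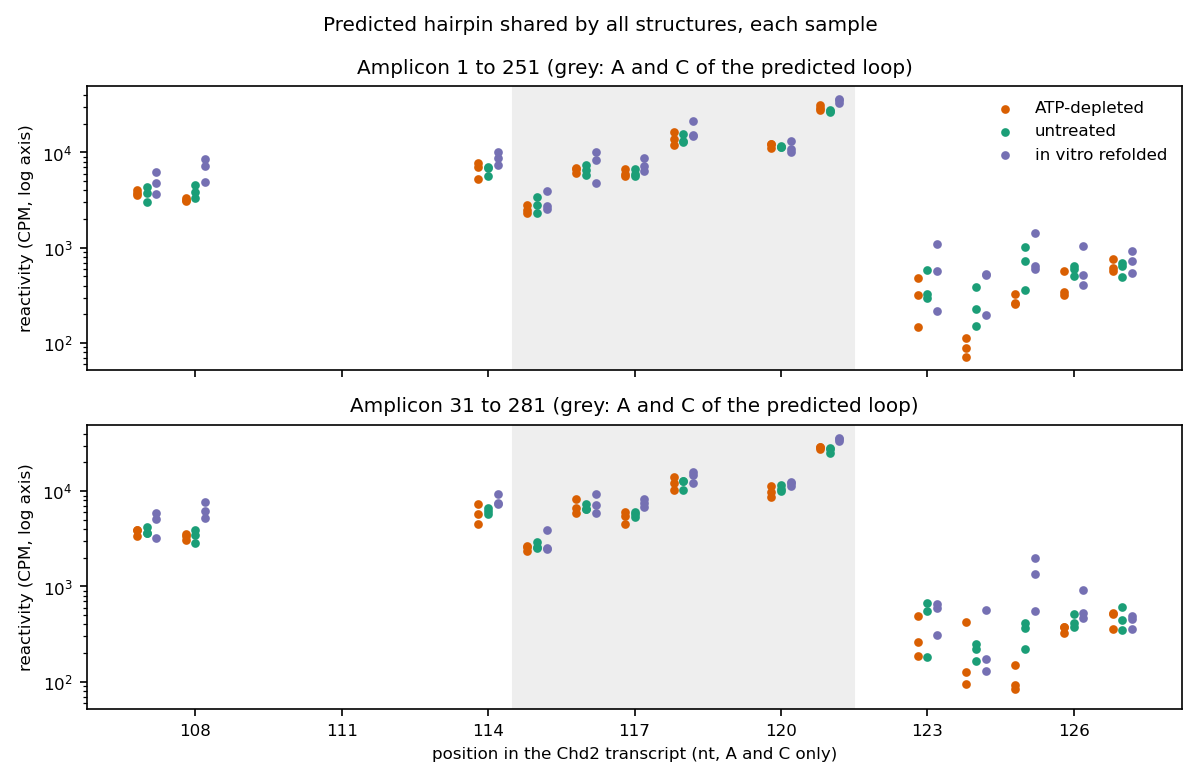
Reactivity of the A and C nucleotides of the predicted hairpin at positions 107 to 129 (x axis, nt) in each of the 9 samples (y axis, CPM, log axis), for both amplicons; colours mark the groups and grey the predicted loop. The 3′ strand of the stem, 123 to 127, lies below the loop in all samples of all 3 groups, and position 121 is the highest.

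A second stem was shared by all 3 predicted structures, with 6 pairs between 136 to 141 and 145 to 150. Unlike the 3′ strand of the first, it was read at a high level. The median of its 4 A and C was 12058 ± 1051 CPM in untreated cells, 11759 ± 1633 CPM after ATP depletion and 10959.7 ± 1331 CPM in vitro in the amplicon 1 to 251 (SD, n = 3 each). For comparison, the 8 A and C of the hairpin stem at 107 to 129 had medians of 704 ± 118, 556 ± 31.7 and 968 ± 260 CPM in the same groups and amplicon. Most of these 8 are the C run at 123 to 127, and the 5′ strand was read higher. In untreated cells C107 was at 2998, 3781 and 4342 CPM there, and C114 at 6946, 5638 and 7014 CPM. The level at the second stem was above the median of the A and C predicted unpaired in that amplicon, which was 9460 ± 874 CPM in untreated cells.

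For tests, reactivity was taken as log2(CPM + 3196.78), where the added constant is 0.5 times the median of all A and C. The constant shrinks the fold change of weak nucleotides such as those of the C run. A nucleotide was called when limma's p, adjusted by Benjamini-Hochberg over all 16178 nucleotides, was under 0.05. The comparison of in vitro RNA with the mean of the in-cell groups asks how far the leader's profile in cells differs from the fold of the bare RNA. In the Chd2 leader 53 of 179 nucleotide readings were called, or 29.6%, against 21.5% of all nucleotides tested. Of these, 28 were higher and 25 lower in vitro, against 11.3% higher and 10.2% lower over the whole table. The amplicon 1 to 251 had 15 higher and 11 lower of 89, and the amplicon 31 to 281 had 13 higher and 14 lower of 90. The median absolute difference of the Chd2 readings, 0.24, was no larger than that of all nucleotides, 0.26. The median SE was 0.11 for the Chd2 readings and 0.15 over all nucleotides. The Chd2 libraries are deeper than the series median, and the part of depth in the share of calls was not tested.

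The correlation of profiles over the 89 nucleotides of the amplicon 1 to 251 averaged 0.87 between untreated and in vitro samples and 0.80 between ATP-depleted and in vitro samples. Between ATP-depleted and untreated samples it averaged 0.95, against 0.97 among the untreated samples alone. Among the in vitro samples alone it was lower, at 0.91. For the amplicon 31 to 281 the same averages were 0.87, 0.82, 0.95, 0.96 and 0.93 over 90 nucleotides. These correlations run across nucleotides of one leader, which are not independent replicates. Those with ATP-depleted cells draw on the values that chose the transcript and are given as a description only.

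**Figure D2:**
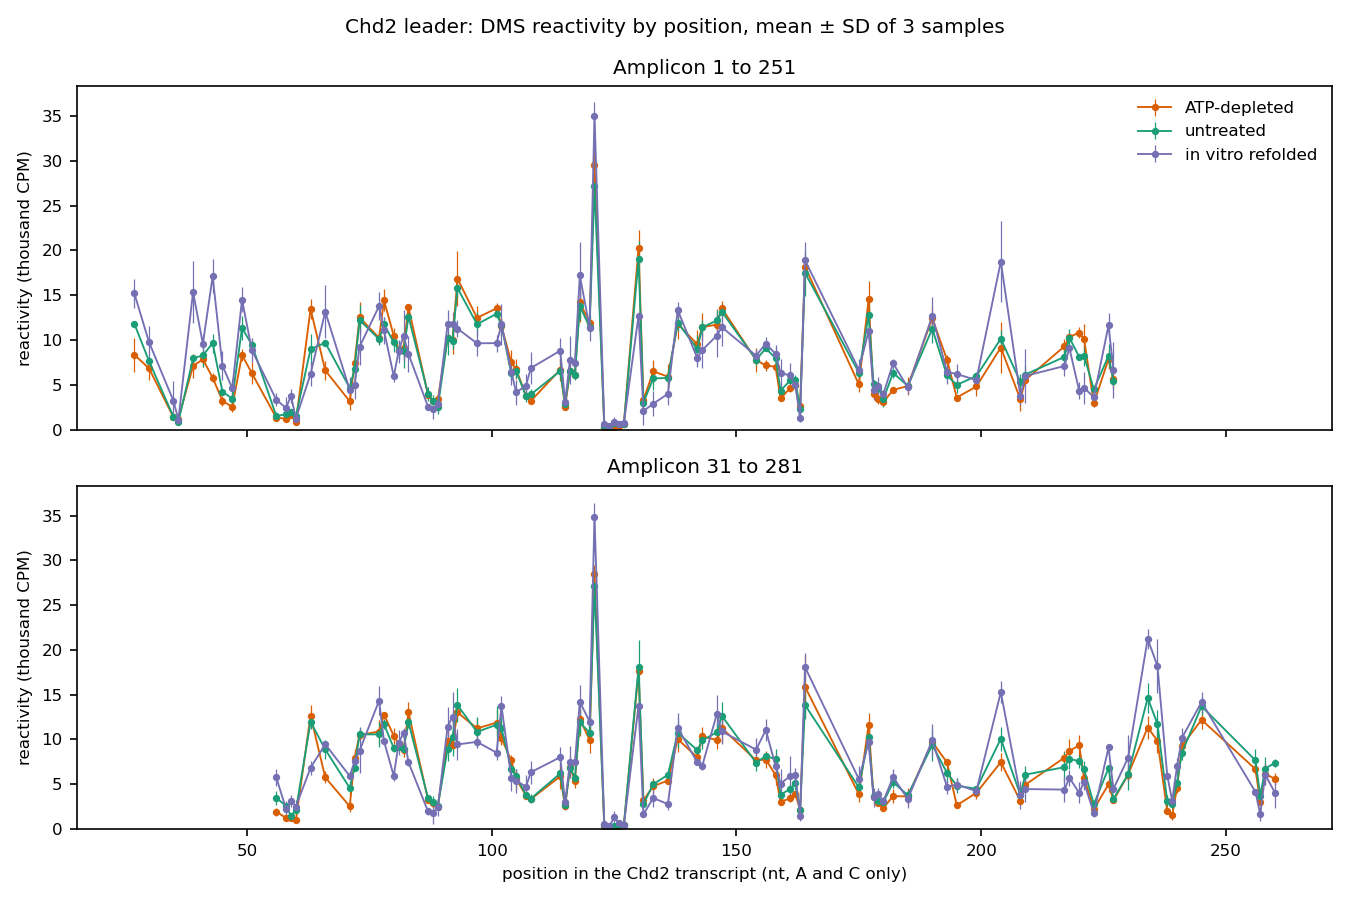
Mean reactivity ± SD of 3 samples (y axis, CPM divided by 1000) at each A and C of the Chd2 leader (x axis, position in the transcript, nt), for both amplicons; colours mark the 3 groups. The groups follow one profile with its peak at position 121, and in vitro RNA stands above the others at positions 25 to 49, 225 to 249 and near 204, and below them past position 250.

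Positions 25 to 49 and 225 to 249 held more signal in vitro, and the outermost 3′ positions held less. Positions 25 to 49, read only in the amplicon 1 to 251, averaged 6839.9, 6422 and 6719 CPM over their 10 A and C in untreated cells. In ATP-depleted cells they averaged 5090.2, 5051 and 5622 CPM, and in vitro 9612, 10752 and 8893 CPM. The 3 groups did not overlap, with ATP-depleted cells lowest and in vitro RNA highest. Positions 225 to 249, read at 10 A and C in the amplicon 31 to 281, gave the same order of groups. They averaged 7605 ± 410 CPM in untreated cells, 6509.6 ± 453 CPM in ATP-depleted cells and 10148 ± 291 CPM in vitro (SD, n = 3 each). In each of these windows 5 nucleotides were called higher in vitro and 0 lower by limma. The last window, from position 250, went the other way over its 4 A and C. It averaged 6387 ± 468 CPM in untreated cells, 5379.9 ± 119 CPM in ATP-depleted cells and 3990.5 ± 171 CPM in vitro (SD, n = 3 each), with 0 called higher and 2 lower. All 3 windows lie near an end of the amplicon that reads them. Over all amplicons, 12.2% of the A and C in the first 25 read positions were called higher in vitro. The shares were 11.1% in the middle of the amplicons and 11.5% in the last 25. In the Chd2 amplicons 1 to 251 and 31 to 281, 5 of 10 and 3 of 9 were higher in the first 25. In the middle 8 of 69 and 8 of 72 were higher, or 11.6% and 11.1%, and in the last 25, 2 of 10 and 2 of 9. Called lower were 0 and 1 in the first 25, 9 and 11 in the middle, and 2 and 2 in the last 25. The middle shares called lower were 13% and 15.3%, against 10.4% over all amplicons.

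Positions read in both amplicons were named before those read in 1, by the size of their mean difference. Among the 21 positions called in every amplicon that read them, with the in vitro samples outside the range of the 6 in-cell samples, 14 were higher and 7 lower in vitro, out of 101. By the same rule 8.98% of all 13542 positions were higher and 8.09% lower. The rule is easier to meet at positions read once, which made up most of the table, whereas 78 of the 101 Chd2 positions were read in both amplicons. Of these 78, only 6 were called higher in both amplicons and 6 lower, so most of the 14 higher positions were read once. C204 had the largest rise read in both amplicons. Its values in the amplicon 31 to 281 were 11475, 8820.3 and 9947 CPM in untreated cells, 8095, 6322 and 7974 CPM in ATP-depleted cells, and 13860.2, 15862 and 16122 CPM in vitro. The groups did not overlap in that amplicon, and in vitro RNA was highest. The rise in vitro was 0.64 ± 0.10 there (limma adjusted p = 0.00429) and 0.77 ± 0.17 in the amplicon 1 to 251 (limma adjusted p = 0.0161). There the in vitro samples were at 17521, 23802 and 14928 CPM, and the 6 in-cell samples between 6419 and 12041 CPM. Without in vitro sample 2 the rise in the amplicon 1 to 251 was 0.61 and its limma adjusted p was 0.0506.

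C56 and C59 were weak in cells and rose in vitro. C59 was read in the amplicon 31 to 281 at 1381, 1634 and 1463 CPM in untreated cells, 828, 1278 and 1491 CPM in ATP-depleted cells, and 3621, 2410.4 and 3421 CPM in vitro. In vitro values were thus all above the in-cell values, while both in-cell groups overlapped in that amplicon. In the amplicon 1 to 251, ATP-depleted cells, at 1527, 1781 and 1509 CPM, lay below untreated cells, at 1865, 2128 and 1916 CPM. The rise of C59 was 0.48 ± 0.10 in the amplicon 31 to 281 and 0.48 ± 0.09 in the other (limma adjusted p = 0.00991 and 0.00801). C56 rose by 0.61 ± 0.11 and 0.50 ± 0.10 (limma adjusted p = 0.00717 and 0.0111 in the amplicons 31 to 281 and 1 to 251). Its level in untreated cells differed between the amplicons, at 3485 ± 792 and 1505 ± 482 CPM in the same order (SD, n = 3 each). In the amplicon 31 to 281 every ATP-depleted sample of C56 lay below every untreated one. In the amplicon 1 to 251 the in-cell groups overlapped.

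A108 sits at the foot of the predicted hairpin and is paired there in all 3 structures. Its values in the amplicon 1 to 251 were 3891, 3309 and 4559 CPM in untreated cells, 3104, 3147 and 3323 CPM in ATP-depleted cells, and 8495, 7230.0 and 4873 CPM in vitro. All in vitro values exceeded all in-cell values. It rose by 0.56 ± 0.13 and 0.53 ± 0.11 in vitro (limma adjusted p = 0.0156 and 0.00967). Of the 5 C on the opposite strand, C123, C124, C126 and C127 were not called in either amplicon. C125, singled out after its values were seen, was called higher in vitro in the amplicon 31 to 281 (0.38 ± 0.11, limma adjusted p = 0.036) and not in the other (0.15 ± 0.10, limma adjusted p = 0.326). Its values in the amplicon 31 to 281 were 218, 417 and 365 CPM in untreated cells, 83.6, 151 and 91.5 CPM in ATP-depleted cells, and 1979, 1364 and 557 CPM in vitro. The call was lost in 10 of 19 alternatives, 8 of them by leaving out 1 sample, and without in vitro sample 1 the rise was 0.28 (limma adjusted p = 0.102, range over all alternatives 0.00546 to 0.102).

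A220 had the largest fall in vitro. It was read in the amplicon 1 to 251 at 7995, 8398 and 7956 CPM in untreated cells, 11562, 10523 and 10398 CPM in ATP-depleted cells, and 3295, 5119 and 4634 CPM in vitro. The groups did not overlap, with ATP-depleted cells highest and in vitro RNA lowest. This order was the reverse of that at positions 25 to 49 and 225 to 249. The difference of in vitro from in-cell RNA was -0.75 ± 0.10 here and -0.69 ± 0.12 in the amplicon 31 to 281 (limma adjusted p = 0.00178 and 0.00625). In the latter the 3 groups were also apart, at 8406, 6963 and 7368 CPM in untreated cells, 8920.5, 8469.9 and 10672 CPM in ATP-depleted cells, and 5084, 2768 and 4337 CPM in vitro.

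The other named falls, C80, C83 and C93, lie in the stretch from 73 to 98. All 3 are predicted unpaired in the structures of the amplicon 1 to 251 and of the joined positions. In the structure of the amplicon 31 to 281 all 3 are predicted paired. C83 was read in the amplicon 31 to 281 at 12305, 11221 and 12238 CPM in untreated cells, 13466, 11673 and 13961 CPM in ATP-depleted cells, and 7677, 6989.6 and 7719 CPM in vitro. The in-cell groups overlapped in that amplicon, and the in vitro samples lay below both. In the amplicon 1 to 251 all ATP-depleted samples of C83 lay above all untreated samples. The difference of C83 was -0.55 ± 0.08 in the amplicon 31 to 281 and -0.50 ± 0.11 in the amplicon 1 to 251 (limma adjusted p = 0.00313 and 0.014). C80 differed by -0.50 ± 0.08 and -0.54 ± 0.09 (limma adjusted p = 0.005 and 0.00588 in the same order). C93 differed by -0.40 ± 0.12 and -0.43 ± 0.11 (limma adjusted p = 0.0416 and 0.0271), and this call was lost in 12 of 20 and 5 of 20 alternatives. Adjusted p over all alternatives ran from 0.0246 to 0.119 and from 0.0149 to 0.0823. Leaving out any 1 of the 9 samples lost the call in the amplicon 31 to 281, and without in vitro sample 1 the difference there was -0.28.

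**Figure D3:**
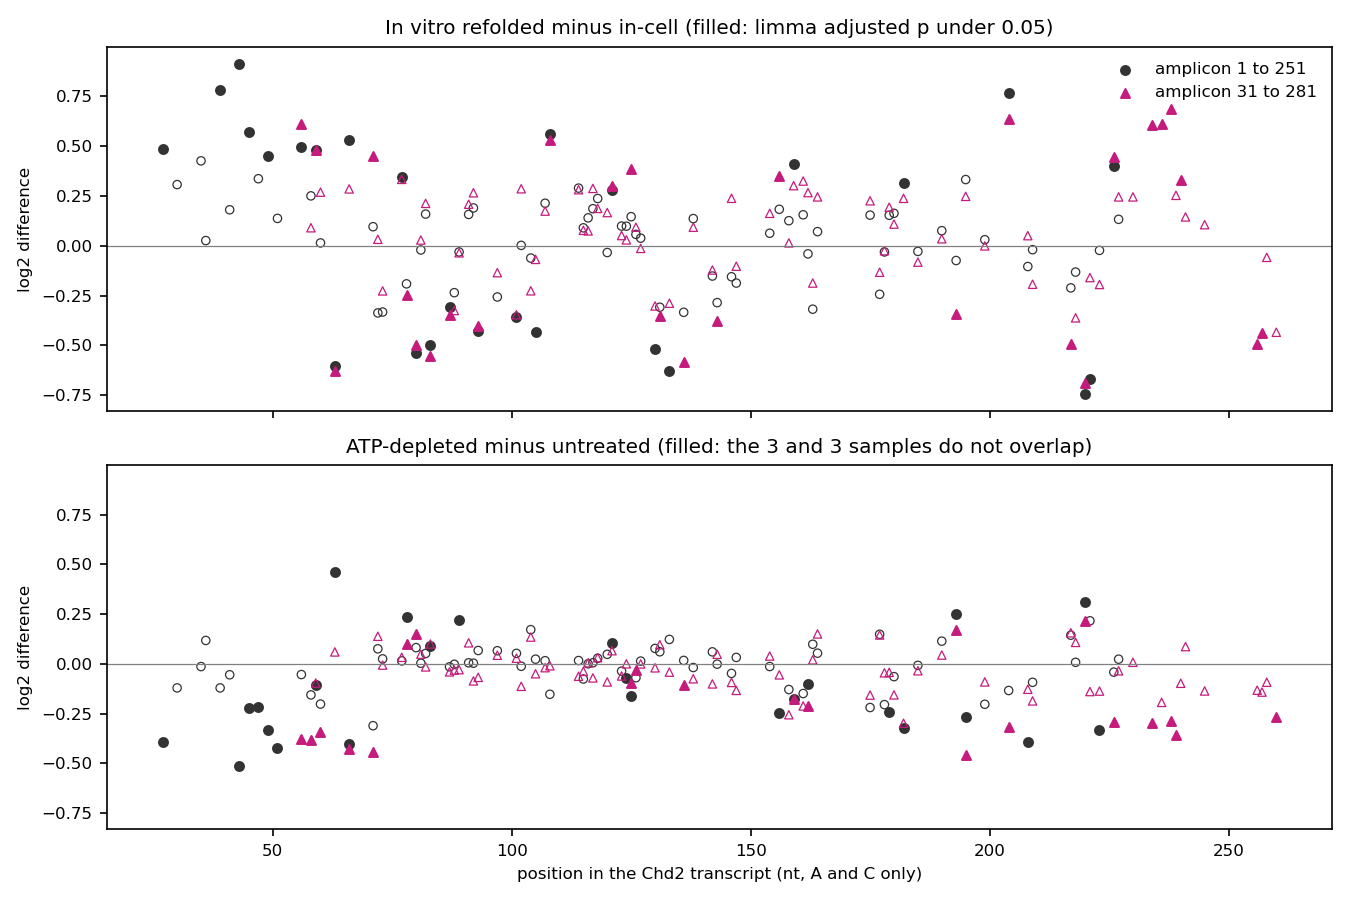
Log2 difference (y axis) at each A and C of the Chd2 leader (x axis, position in the transcript, nt) for in vitro refolded minus in-cell RNA, above, and ATP-depleted minus untreated cells, below; circles and triangles are the 2 amplicons. Filled points above are the 53 limma calls; filled points below are readings whose 3 and 3 samples do not overlap, a description without a test.

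ATP-depleted cells are described by the readings whose 3 samples did not overlap the 3 untreated samples. In the amplicon 1 to 251, 18 of 89 A and C were lower and 7 higher in ATP-depleted cells, and in the amplicon 31 to 281, 17 of 90 were lower and 4 higher. Of all A and C tested, 7.92% were lower and 4.45% higher in this way. Because this contrast chose the transcript, nothing is read from these counts.

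Counted by position, 18 of 101 were apart in every amplicon that read them, 15 lower and 3 higher in ATP-depleted cells. By the same rule 6.5% of all 13542 positions were lower and 3.94% higher. Of the 18, 10 lower ones were read in 1 amplicon only, where the rule is easier to meet. The 8 read in both were 5 lower and 3 higher. C66 had the largest difference among them. Its values in the amplicon 1 to 251 were 9564, 9729.6 and 9788 CPM in untreated cells, 6518, 5556 and 7713 CPM in ATP-depleted cells, and 10199, 16128 and 13170.1 CPM in vitro. Those in the amplicon 31 to 281 were 7691, 9709 and 9257 CPM, 6265, 5018 and 6019 CPM, and 9669, 9476 and 9244 CPM, in the same order. ATP-depleted cells were lowest in both. The ATP-depleted minus untreated difference was -0.40 and -0.43 on the log2 scale.

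A43, read once, had the largest difference of all. It was at 10614, 8479.7 and 9825 CPM in untreated cells and at 5311, 5769 and 6282 CPM in ATP-depleted cells, a log2 difference of -0.51. In vitro it was at 14895, 18259 and 18106 CPM, and the 3 groups did not overlap. Its rise in vitro over the mean of the in-cell groups was 0.92 ± 0.10 (limma adjusted p = 0.000768). With the mean of each amplicon set equal in all samples, the rise was 0.86 (limma adjusted p = 0.000852). C27 and C51, also read once, differed between ATP-depleted and untreated cells by -0.39 and -0.42. C27 was at 11642, 11984 and 11802 CPM in untreated cells and 6311, 8629 and 10111 CPM in ATP-depleted cells. C51 was at 10198, 8876 and 9376 CPM in untreated cells and 5246, 5981 and 7654 CPM in ATP-depleted cells.

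The 3 positions higher in ATP-depleted cells in both amplicons were A220, A193 and C78. At A220, given above, the log2 differences were 0.31 and 0.22. A193 was at 6156, 5563 and 6384 CPM in untreated cells and 8170.2, 7199 and 8024 CPM in ATP-depleted cells of the amplicon 1 to 251, and its differences were 0.25 and 0.17. C78 was at 10842, 12537 and 11859.8 CPM in untreated cells and 13541, 13949.9 and 15802 CPM in ATP-depleted cells, with differences of 0.24 and 0.10.

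The Gini coefficient, which is 0 when all nucleotides react alike and grows as signal gathers on fewer of them, was taken over the A and C of each amplicon. Its values in the amplicon 1 to 251 were 0.336, 0.337 and 0.336 in untreated cells, 0.381, 0.369 and 0.373 in ATP-depleted cells, and 0.361, 0.366 and 0.362 in vitro. In the amplicon 31 to 281 it was 0.336, 0.336 and 0.340 in untreated cells, 0.374, 0.370 and 0.370 in ATP-depleted cells, and 0.375, 0.374 and 0.376 in vitro. Untreated cells were lowest in both amplicons. ATP-depleted cells were above in vitro RNA in the first, and the 2 groups overlapped in the second. The ATP-depleted minus untreated difference was 0.038 and 0.0335, a description for the reason given. Of the 161 amplicons, 4 and 6 had a larger value than these, and the median of all was 0.00403.

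The base makeup of that difference was unlike in the 2 amplicons. Over C alone it was 0.0348 in the amplicon 1 to 251 and 0.0449 in the amplicon 31 to 281. Over A alone it was 0.0412 in the first and 0.000547 in the second. In the amplicon 31 to 281 the Gini coefficient over A was 0.272, 0.244 and 0.248 in untreated cells and 0.270, 0.249 and 0.247 in ATP-depleted cells, and the groups overlapped. The amplicon 31 to 281 also had a lower median of C in ATP-depleted cells, 4563 ± 304 CPM against 5392 ± 169 CPM in untreated cells (SD, n = 3 each).

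Tested over all amplicons, the Gini coefficient of in vitro RNA exceeded the mean of the in-cell groups by 0.0203 ± 0.0059 in the amplicon 31 to 281 (limma adjusted p = 0.0127). It was 0.0371 above untreated cells and 0.0035 above ATP-depleted cells, whose samples it overlapped. The call was lost with values capped at percentile 95, where the difference was 0.013 (limma adjusted p = 0.119). It was also lost at positions read in both amplicons, an alternative chosen after the data had been seen, where the difference was 0.00791 (limma adjusted p = 0.287). The amplicon 1 to 251 differed by 0.0074 ± 0.0062 and was not called (limma adjusted p = 0.291). In the series 82% of amplicons were called higher in vitro, and the median difference was 0.0877. Of the 161 amplicons, 151 and 144 had a larger difference than the amplicons 1 to 251 and 31 to 281. Over C alone the direction turned, to -0.0105 and -0.0148, and neither was called. Over A alone both rose, by 0.0383 and 0.067.

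**Figure D4:**
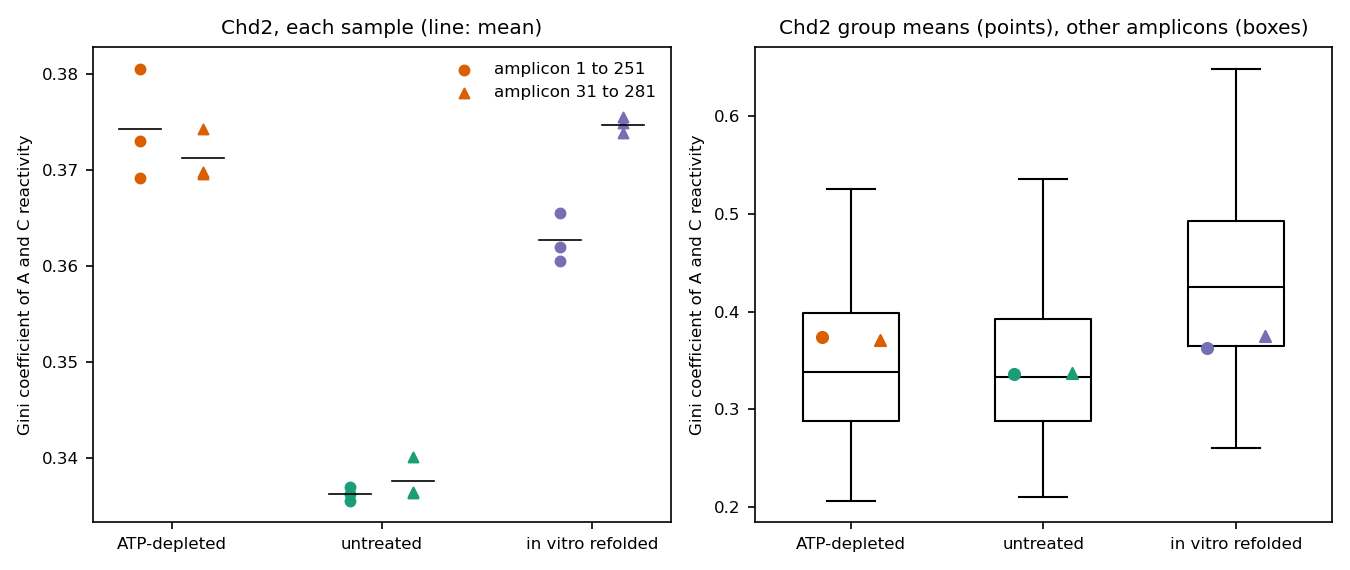
Gini coefficient (y axis, no unit) of A and C reactivity in each Chd2 sample by group, left, with lines at the means, and the Chd2 group means over boxes (quartiles, whiskers to 1.5 times the interquartile range) of the other amplicons, right. Untreated cells are lowest in both Chd2 amplicons, and the Chd2 in vitro values lie low among the other amplicons.

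The mean log2 reactivity of the leader was not called in either amplicon. In vitro minus in-cell differences were 0.04 ± 0.028 and 0.035 ± 0.0239 (limma adjusted p = 0.311 and 0.301), whereas 17.4% of amplicons were called. This measure is held near a constant by the scaling to CPM.

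Predicted pairing separated strong from weak nucleotides in the amplicon 1 to 251. The area under the curve (AUC) is the chance that a nucleotide predicted unpaired reacts more than a paired one, and 0.5 means no separation. It was 0.79, 0.809 and 0.813 in untreated cells, 0.837, 0.836 and 0.848 in ATP-depleted cells, and 0.736, 0.717 and 0.761 in vitro. The groups did not overlap, and in vitro RNA was lowest. In vitro RNA fell by 0.0842 on this scale from the mean of the in-cell groups (SE 0.0118, limma adjusted p = 0.000925), and 16.8% of all amplicons were called lower. Over A alone the difference was -0.0262 and was not called.

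For the amplicon 31 to 281 the AUC of its own predicted structure was only 0.597 ± 0.00365 in untreated cells, 0.597 ± 0.00724 in ATP-depleted cells and 0.579 ± 0.0143 in vitro (SD, n = 3 each). The in vitro difference, -0.0185 ± 0.0099, was not called (limma adjusted p = 0.195). The structure depended on which positions were folded. The structures of the 2 amplicons had 54 and 66 pairs, that of the joined 237 positions had 68, and only 14 pairs were common to all 3. The joined structure shared 34 pairs with the first and 14 with the second. Its predicted free energy was -77.8 kcal/mol, against -69.6 and -64.8 for the parts. Against the joined structure, the same readings of the amplicon 31 to 281 gave AUC values of 0.804 ± 0.00539 in untreated cells, 0.816 ± 0.0093 in ATP-depleted cells and 0.805 ± 0.0182 in vitro (SD, n = 3 each). With the joined structure the in vitro difference in the amplicon 31 to 281 was -0.00427 and was not called (limma adjusted p = 0.8). In the amplicon 1 to 251 it was -0.0883 (limma adjusted p = 0.0012), with an AUC of 0.736 ± 0.0293 in vitro (SD, n = 3). The fall in vitro thus differed between the amplicons on the joined structure too, over all A and C that each reads. These sets differ outside positions 56 to 227, which both read, and the AUC was not taken over the shared positions alone. The joined structure was chosen as an alternative after the data had been seen.

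The overlapping amplicons were amplified with different primers and agree closely on 78 shared A and C positions, from 56 to 227. The correlation of log2 reactivity between them was 0.95 on average over the 9 samples, and 0.971 ± 0.021 in ATP-depleted cells, 0.957 ± 0.0333 in untreated cells and 0.923 ± 0.0385 in vitro (SD, n = 3 each). Among 52 other overlapping pairs in the table this average ranged from 0.109 to 0.973, with a median of 0.846, and 4 pairs were above the Chd2 pair. The pairs differ in depth and in the number of shared positions, and both amplicons of a sample come from the same RNA.

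The in vitro minus in-cell difference had the same sign in both amplicons at 70 of 78 shared positions. At 12 positions it was called in both, with the same sign each time, 6 higher and 6 lower. At 18 positions it was called in 1 amplicon only, and the sign in the other was the same at all 18. The correlation between the amplicons over the 78 positions was 0.859 for in vitro minus in-cell differences, against a median of 0.702 in the other pairs. For ATP-depleted minus untreated differences, which chose the transcript, it was 0.683, and the sign agreed at 58 of 78 positions, 34 lower and 24 higher. These last values are a description. The amplicons share each sample's cells, so this agreement is between amplifications and not between independent samples.

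**Figure D5:**
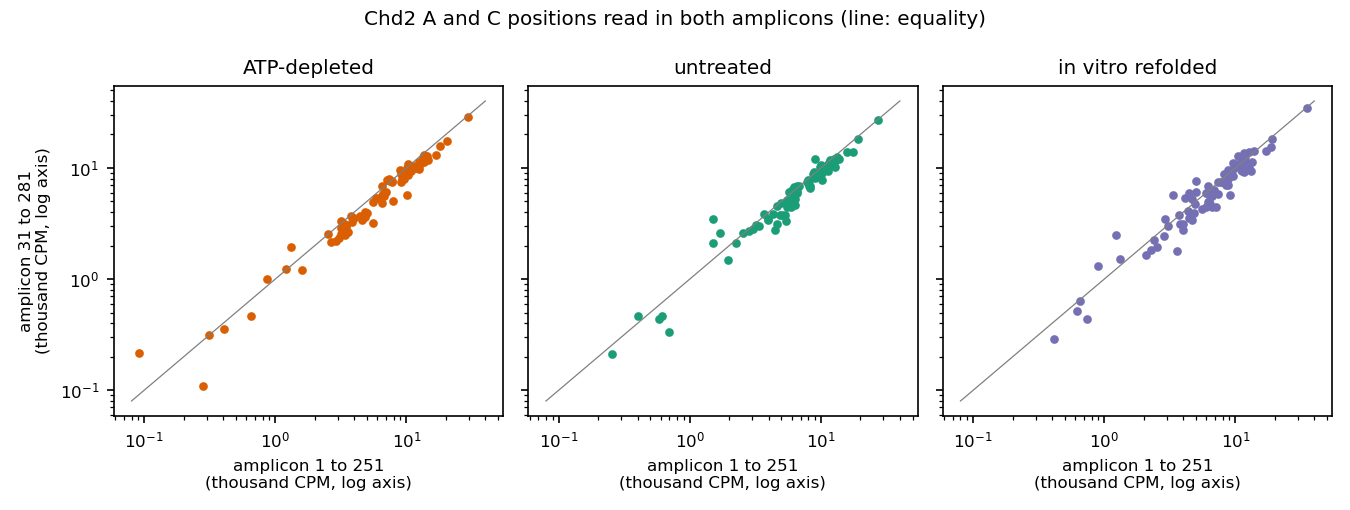
Group mean reactivity at the 78 A and C positions of the Chd2 leader read in both amplicons (x axis, amplicon 1 to 251; y axis, amplicon 31 to 281; CPM divided by 1000, log axes), one panel per group, with the line of equality. The points follow the line in all 3 groups, with the widest scatter at the weakest positions.

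Among other transcripts, the amplicons whose 3 group means of the Gini coefficient lay nearest to the Chd2 amplicon 31 to 281 were 465 to 715 and 459 to 709 of Ptp4a2, a phosphatase, and 505 to 755 of Rbm10, a splicing regulator. Their summed distances were 0.047, 0.0489 and 0.0512. Ptp4a2 at 465 to 715 had 0.34 ± 0.00599 in ATP-depleted cells, 0.329 ± 0.00582 in untreated cells and 0.382 ± 0.0147 in vitro (SD, n = 3 each). Rbm10 had 0.341 ± 0.0134, 0.33 ± 0.00867 and 0.388 ± 0.00486 in the same order.

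Of a list of 36 chromatin regulators, 5 were in the table. Besides Chd2 they were Brd2, a reader of acetylated histones, Eed, a subunit of Polycomb repressive complex 2, and the histone demethylases Kdm2a and Jmjd1c. Their 15 amplicons had 290 of 1495 nucleotides called in vitro against in-cell, or 19.4%, against 29.6% in Chd2 and 21.5% in the table. Amplicons ranged from 6.86% in Jmjd1c to 55% in Brd2, so the Chd2 amplicons, at 29.2% and 30%, lay within this range. The smallest library of the 15 ranged from 478 counts in Eed to 52928 in Kdm2a, below those of Chd2.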

How the data were processed

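The authors deposited log2 values per nucleotide and sample; Bowtie2, limma and bcl2fastq are named in the submitters' processing notes without a role, and the genome build is not given in the sources used here, so positions are those in the transcript. From the values, each is the log2 of a whole count plus 0.5, per 1000000 of a library size, with whole counts recovered in 1449 of 1449 libraries at a tolerance of 0.0001. They are taken to be mutation counts. Coverage is unknown, and amplified reads are not independent molecules.

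Values were turned back to CPM. A mean per group was fitted over all 9 samples with limma 3.58.1 (R 4.3.3), on log2(CPM + 3196.78) for nucleotides, and on each amplicon's Gini coefficient, mean and AUC. Structures came from RNAfold 2.7.2. Tests were two-sided and were tested on simulated data first.

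Members and lists were chosen with earlier results of these data known. By rule, the text names the 4 largest rises and 4 largest falls of each comparison, the 5 highest and the 3 lowest positions, and the 3 amplicons nearest in Gini coefficient. Replicate numbers were not used to pair the samples in the main fit. Deviations of same-numbered samples correlated at -0.0177 to 0.1. The share of signal at U in the amplicon 1 to 251 nevertheless followed the same order of replicates in both in-cell groups. It was 28.4, 31.3 and 24.6% in ATP-depleted cells and 27.1, 28.1 and 22.8% in untreated cells. In vitro it was 25.0, 24.8 and 25.8%. Calls with a replicate block are given below.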

Additional observations from a re-analysis of the deposited data

Results flagged for a closer look

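The comparisons used A and C, which DMS modifies on their pairing face, and left out the signal at U and G of the Chd2 leader. It was above the 3 counts that a count of 0 allows. The median over 129 U readings was 4047 CPM, averaged over the 9 samples, against 935 CPM over 106 G readings. All 129 U readings held at least 3 counts in every sample, and 105 of 106 G readings did. By group the median of U was 4236 ± 393 CPM in untreated cells, 4461 ± 578 CPM in ATP-depleted cells and 3444 ± 57.6 CPM in vitro (SD, n = 3 each). The median of C in the same samples was 5720.2 ± 155, 4897 ± 249 and 5522 ± 453 CPM. U took 26 ± 2.79% of all signal in untreated cells in the amplicon 1 to 251 and 29.7 ± 2.59% in the amplicon 31 to 281. Without samples lacking DMS, how much of this signal is background was not tested.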

How the results depend on the processing

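The number of Chd2 nucleotides called in vitro against in-cell, 53, was 31 among nucleotides at or above the median and 14 among A alone. Without 25 nt at the amplicon ends it was 36 of 141. Fewer nucleotides were tested in each of these settings. The number was 54 with the mean of each amplicon set equal, and 36 to 42 when 1 sample was left out. With a replicate block it was 44, and named nucleotides that lost their call by limma were A121 in the amplicon 1 to 251 (adjusted p = 0.0542) and C78, C93, C125 and A193 in the other (0.0701, 0.0796, 0.0578 and 0.0699). The block changed no other call of a named nucleotide or amplicon value. The Gini difference in vitro in the amplicon 1 to 251 was called at nucleotides above the median (0.0349) and over A alone (0.0383), and turned over C alone (-0.0105) and without 25 nt at the amplicon ends (-0.00807). In the amplicon 31 to 281 it turned over C alone (-0.0148). There it lost its call when values were capped at percentile 95 (0.013) and, in an alternative chosen after seeing the data, at positions read in both amplicons (0.00791). The mean log2 difference turned without amplicon ends in the first (-0.00461) and over C alone in the second (-0.00186). The AUC difference lost its call over A alone (-0.0262). The ATP-depleted minus untreated Gini difference moved to 0.0295 above the median in the amplicon 1 to 251. In the other it moved to 0.00464 above the median, 0.000547 over A, 0.0449 over C and 0.0205 without ends. Where no value is given for a cause, the cause was not tested. Without 1 sample, the Gini difference in vitro ran from 0.00599 to 0.00899 and from 0.0199 to 0.0211, the AUC difference from -0.0955 to -0.0738 and from -0.0268 to -0.0143, and the ATP-depleted Gini difference from 0.0348 to 0.0405 and from 0.032 to 0.0348. No named nucleotide called in the amplicons changed sign in the alternatives run. Counts limit the C run most: C124 rested on as few as 6 counts in a sample.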
